A study of Mus musculus with 4 samples.

Results

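Of 37806 autosomal exonic SNPs that were covered by at least 10 allele specific reads in gonadal adipose tissue of F1 mice, 1641 (4.34%, 95% Wilson interval 4.14 to 4.55) were counted from the B allele only. These B-only SNPs were chosen by their read counts: they lie in an exon on chromosomes 1 to 19, list different bases for the C57BL/6J (B) and DBA/2J (D) strains, and have at least 10 B reads and no D read over the 4 RNA pools. They stand in 1694 table entries, because 50 of them are listed under more than 1 gene, and they fall in 949 of the 6582 genes with a covered exonic SNP. The tables hold 49099 autosomal exonic SNPs in all.

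All mice were first generation offspring of B and D parents fed chow, and every pool therefore carries 1 B and 1 D copy of each autosome. By label, there was 1 pool for each cross and sex. It held 3 animals for BxD females, BxD males and DxB males, and 2 for DxB females. The labels give an age of 8 weeks and the methods another age. For the samples labelled DxB female and BxD male the deposited data carry a different cross and sex in their names, so these are called the libraries labelled DxB female and BxD male, and all results on B-only SNPs are sums over the 4 pools or values of each pool. On the rows numbered chromosome 22, all 939 B bases equal those of the X chromosome of the reference. There D reads made up 31.3%, 8.19%, 29.3% and 51.7% of reads in the female BxD, female DxB, male BxD and male DxB pools by label. A male carries only the X of its mother, and an F1 female 1 X of each strain. The lowest share, in the pool labelled DxB female, and the 29.3% of that labelled BxD male go with the names in the deposited data rather than the labels. Males with D mothers would give nearly all D reads, which no pool did (51.7% at most), so these rows are no clean check. Sample identity was not tested. Of the adipocyte markers, Lep, Cidec and Car3 had exonic SNPs and were read in every pool. Reads at the epididymis markers Adam7 and Lcn5 (290 in all) came from the library labelled DxB male alone, and their part in the results was not tested. With 1 pool per group, the pools are the only replicates, and tests measure the spread between them.

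In an F1 animal both parental alleles of an autosomal gene are present in the same nucleus, and a read that covers a SNP shows which copy it came from. A gene without cis-acting differences gives both alleles in about equal numbers, an imprinted gene gives the allele of 1 parent and so a different strain in the reciprocal cross, and a strain difference in cis gives the same strain in both crosses. At all 37806 covered SNPs the B base was the base of the NCBIM37 (mm9) reference.

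The sequences around B-only SNPs that the results turn on are given below for the plus strand of mm9, 5′ to 3′, 14 bases on either side of the SNP. The B base is in capitals at position 15, counted from 1 at the 5′ end, and the token names the B base, that position and the listed D base. They include some of the deepest B-only SNPs, the 9 autosomal ones that the study took to a sequencing check, and a stop gain.
Igfbp7, chr5:77836701-77836729, C15G: gcacacgcacacggCgagggtcgcgggac
Cox8a, chr19:7291911-7291939, G15A: gccggcttcgagtgGacctgagcccgcgg
Glrx5, chr12:106270909-106270937, T15G: catgagcgcgtcccTgagccgggcggcgg
Glrx5, chr12:106270905-106270933, T15G: cgggcatgagcgcgTccctgagccgggcg
Atox1, chr11:55263963-55263991, T15A: ctcttcagtttataTccggaaggactcgc
Sub1, chr15:11920756-11920784, T15A: ggatgccagtgctcTagaagtctcaccag
Fam100a, chr16:4875463-4875491, C15A: catcctctcccccaCcccacggggttctg
Stat3, chr11:100765026-100765054, G15A: ttcttaatttgttgGcgggtctgaagttg
Psmd5, chr2:34726313-34726341, T15C: gctccgccgcctgcTcgcgaagctcgtgc
Gnaq, chr19:16207503-16207531, A15G: gcacagccttgggcAgcgtcggcggcggc
Rab4b, chr7:27963849-27963877, A15C: ctcagctcctttccActtctggacccggc
Bcl6, chr16:23974952-23974980, T15C: catggctgtggtcaTcaccgccatgatat
Adra2c, chr5:35622697-35622725, T15G: gcagctgtggtgggTttcctcatcgtttt
Ccdc55, chr11:76859992-76860020, T15A: ctcactagatgatcTtgagtgggcgcgat

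The deepest B-only SNP lay in a coding exon of Igfbp7, which encodes a secreted protein that binds insulin-like growth factors. It had 3687, 2500, 3339 and 2032 B reads in the pools labelled female BxD, female DxB, male BxD and male DxB, and no D read among 11558, which allows a share of reads with the listed D base of up to 0.026% (3 counts, counting error only, since reads are not independent molecules). Such a limit is one on the D allele only where DBA/2J mice carry the listed base. Where they carry the B base, reads of both copies are counted as B and an absent D read says nothing of the D allele. The tables do not show which of these holds at a SNP. The SNP was deep in every pool. Cox8a, a subunit of cytochrome c oxidase, followed among genes outside the major histocompatibility complex with 823, 986, 1056 and 902 B reads. Glrx5, a mitochondrial glutaredoxin of iron-sulfur cluster assembly, had 2 B-only SNPs in a coding exon, 20 and 24 bp from an annotated transcript start, with 2209 and 2365 B reads. Both list T for B and G for D. Hnrnpu, a nuclear RNA-binding protein, had 2448 B reads and Prdx1, a peroxidase, had 2123. H2-D1 (7128), H2-T23 (2848) and Bat1a, an RNA helicase gene (3220), lie in the major histocompatibility complex on chromosome 17, and counts in its class I genes are uncertain because near-identical copies share reads. Ppp2r5a, a regulatory subunit of protein phosphatase 2A, had 2482 B reads, Eef2, the translation elongation factor, 1834, Arpp19, a phosphoprotein that inhibits the same phosphatase, 1774, and AC114918.4-2 had 1782.

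At the 9 autosomal B-only SNPs of the sequencing check, B reads ranged from 20 (Adra2c, an adrenergic receptor) to 1409 (Atox1, a copper chaperone). Atox1 had between 271 and 403 B reads in each pool. Sub1, a transcriptional coactivator, had 201, 169, 177 and 148 in the pools in the order above, and Stat3, the transcription factor of cytokine and leptin signalling, had 176, 180, 129 and 158. No pool stood apart in these 3 genes. Bcl6, a transcriptional repressor, had 32, 40, 78 and 63 B reads, so its libraries labelled BxD male and DxB male were higher than the other two. Adra2c had 9, 5, 5 and 1, and 20 reads without one of the listed D base allow a share of that base of up to 15%. Psmd5, a proteasome assembly factor, had 242 in all, Gnaq, a G protein subunit, 233, Rab4b, a GTPase of endosome recycling, 223, and Fam100a 685. In bulk tissue, fewer cells of a type and less RNA per cell cannot be told apart as sources of such differences between pools. The 9 were chosen by the study on these samples, which sequenced them to learn whether the parental strains differ there, so no limit on the D allele is read from their counts. None had another SNP with a D read within 10 kb, which held for 28.2% of all B-only SNPs. In 8 of the 9 the listed D base was the same as a base next to the SNP, against 57.3% of all B-only SNPs.

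**Figure D1:**
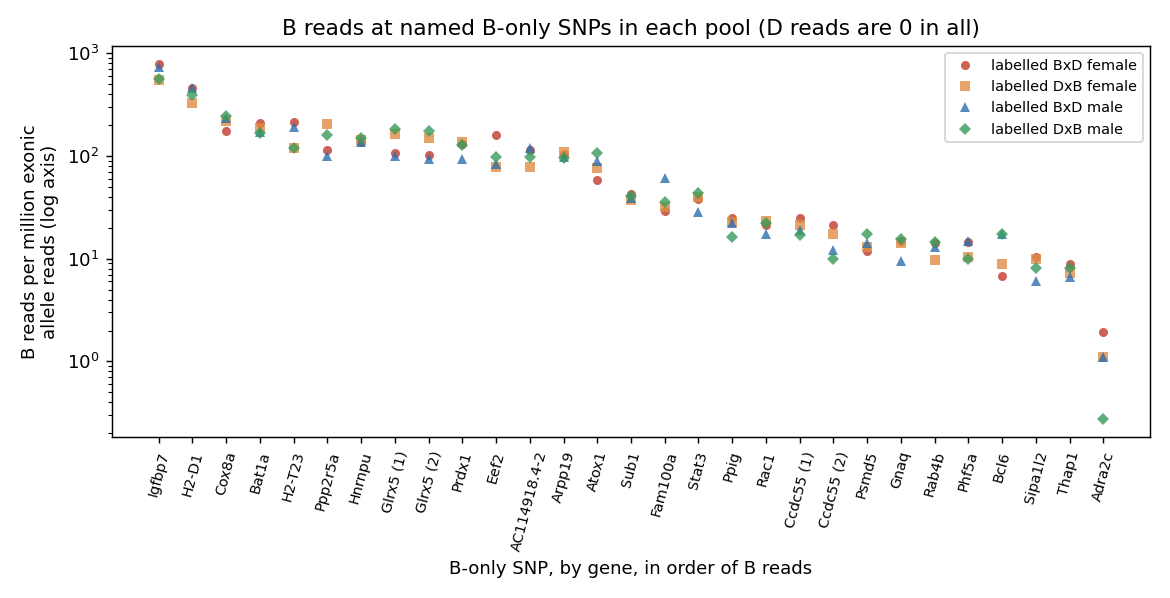
B reads relative to the exonic allele reads of the pool (log axis) at 29 named B-only SNPs, with 1 point for each pool by its label and no D read in any. The 4 pools sit close together at most SNPs, from Igfbp7 with 11558 B reads in all to Adra2c with 20.

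The B-only SNPs held 281642 reads, between 1.59% and 1.69% of the exonic reads of each pool. Each pool had 3659484 to 4664007 exonic allele reads, and 97.8% to 99.5% of the B-only SNPs were read in it, with 1571 of the 1641 read in all 4. Their median was 56 reads (quartiles 22 and 171), against 110 at the 35705 SNPs where both alleles had at least 1% of the reads. At 613 B-only SNPs there were at least 100 reads and at 38 at least 1000. Without a test, 60 members lay at exactly 10 B reads, 69 SNPs with 9 B reads and no D read were just outside, and 465 SNPs with at least 10 B reads had a single D read. The deepest of the latter were a SNP listed under AC099702.12 and Glul with 13578 B reads, Rmcs2 with 8555 and Ivns1abp with 4026.

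The distribution of the D share had a main peak and a separate one at its lower end. The 1641 SNPs at 0 were followed by 688 with a D share above 0 and up to 5% and by 346 between 10 and 15%, before the counts rose to 6928 between 50 and 55%. The opposite class, D-only SNPs with at least 10 reads, had 105 members. B-only SNPs made up 8.10% of SNPs with 10 to 19 reads (95% interval 7.34 to 8.93), 3.73% with 100 to 299 reads (3.37 to 4.11) and 1.36% with 1000 or more (0.991 to 1.86). When SNPs with D reads under 1% were added, the share was 4.61% with 100 to 299 reads and 5.39% with 1000 or more (4.62 to 6.29). The D-only class was 0.995% of SNPs with 10 to 19 reads, and 0 of 2799 with 1000 or more, which allows up to 0.107%.

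**Figure D2:**
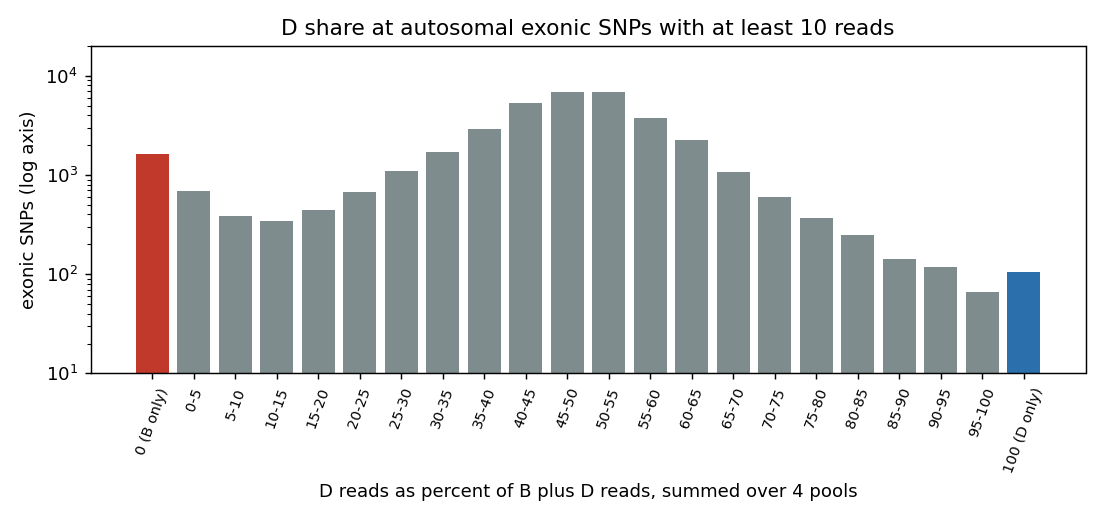
Number of exonic SNPs (log axis) by their D share in percent, with B-only SNPs (0%) in red and D-only SNPs (100%) in blue. The 1641 B-only SNPs form a separate peak, while 105 SNPs were D only.

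The B-only SNPs were found on all 19 autosomes. They took 2.45% of covered exonic SNPs on chromosome 7 (1.99 to 3.02) and 7.33% on chromosome 13 (5.91 to 9.07), with the other autosomes between. In 1 Mb bins, 63.2% of them shared a bin with at least 2 others, and the densest bin, at 34 to 35 Mb of chromosome 17, held 39 of 421 covered SNPs, among them those of H2-K1, Tapbp, Vps52 and Ring1. The bin at 156 to 157 Mb of chromosome 1 held 26 of 85, and that at 76 to 77 Mb of chromosome 11 held 25 of 86. When 1 SNP per gene was kept, 22.1% were in such bins. No bin share of the other covered SNPs is given beside these, so they do not measure clustering. At short range 34.6% of B-only SNPs lay within 1000 bp after another B-only SNP, and 59.3% of SNPs with both alleles lay that close after another of their class. Within 50 bp the shares were 19.4% and 22.3%, and within 18 bp 12.4% and 10.8%. The classes differ in size, so these shares are not matched for number. Followed along covered exonic SNPs, the members formed 978 runs: 644 SNPs stood alone, 408 were in runs of 2, 290 in runs of 3 or 4 and 299 in the 43 runs of 5 or more. The longest run was 16 SNPs over 30455 bp of Ccdc55, which encodes a splicing regulator of nuclear speckles, followed by 14 SNPs over 27244 bp of Sipa1l2, a GTPase activating protein gene, and 12 over 8507 bp of Serpina3b.

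The surroundings of the B-only SNPs held few SNPs with D reads, though the SNPs listed or read there were not counted. No other listed SNP, exonic or intronic, had a D read within 10 kb at 28.2% of B-only SNPs (26.1 to 30.4), compared with 2.0% of SNPs with both alleles (1.8 to 2.1). The median number of such SNPs within 10 kb was 4 around a B-only SNP and 29 around a SNP with both alleles. Within 100 kb none was seen at 13.7% of B-only SNPs and at 0.4% of the others. Around D-only SNPs none was seen within 10 kb at 16.2% (10.4 to 24.4). Without such a count, fewer SNPs with D reads cannot be told from fewer SNPs or fewer reads nearby. Neighbours that are themselves B only also have no D read by the rule.

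The base changes differed from those of SNPs with both alleles. Transitions were 53.3% of B-only SNPs (50.9 to 55.7), 74.9% of SNPs with both alleles (74.5 to 75.4) and 73.3% of D-only SNPs (64.2 to 80.9). With 1 B-only SNP per gene the share was 47.7%. The changes were also unequal between complementary pairs. A G-to-A change from B to D made up 23.3% and its complement, C to T, 3.6% of B-only SNPs, against 19.1% and 18.6% at SNPs with both alleles. T to C was 18.8% and A to G 7.7%, T to G was 12.4% and A to C 5.3%, and C to A was 8.3% and G to T 2.1%. T was the listed D base at 6.8% of B-only SNPs and at 24.2% of SNPs with both alleles. With 1 B-only SNP per gene, G to A was 16.3% and C to T 3.7%, so G to A was then below its share at SNPs with both alleles. In runs of 5 or more B-only SNPs they were 35.8% and 1.3%.

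C to G (5.1%) and G to C (8.2%), and A to T (1.0%) and T to A (4.1%), also differed in frequency. In all 6 pairs the more frequent change was the one whose D base comes first in the alphabet. The listed D base came before the B base in the alphabet at 75.1% of B-only SNPs (73.0 to 77.2), at 85.0% of SNPs with D reads under 1% (80.8 to 88.4), at 50.5% of SNPs with both alleles and at 47.6% of D-only SNPs (38.3 to 57.1). Among B-only SNPs in runs of 5 or more it did so at 87.6% (83.4 to 90.9), and among those standing alone at 71.6% (68.0 to 74.9). With 1 B-only SNP per gene it did so at 71.1% (68.1 to 73.9). All B-only SNPs of Ccdc55 (23), Sipa1l2 (23) and Smad5 (17) had this order, and 12 of 24 in Cacna1e. At 397 further autosomal exonic SNPs the tables list the same base for both strains, with equal B and D counts in every pool. That base was A at 61.5%, C at 30.2%, G at 8.3% and T at none, which allows up to 0.756%.

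The listed D base often repeated the sequence beside it. It equalled a base next to the SNP at 57.3% of B-only SNPs (54.9 to 59.7) and 41.4% of SNPs with both alleles, and equalled both of the next 2 bases on a side at 27.8% against 13.2%. With 1 B-only SNP per gene the shares of B-only SNPs were 62.3% (59.1 to 65.4) and 34.1%. Where no other SNP had a D read within 10 kb, the listed D base equalled a neighbouring base at 324 of 463 B-only SNPs. A T-to-G change preceded by GG, or on the other strand an A-to-C change followed by CC, was looked for as the letters GGT and ACC on the plus strand. It was found at 33.1% of the 290 B-only T-to-G and A-to-C SNPs (27.9 to 38.7) and at 7.8% of the 2505 with both alleles (6.8 to 8.9). The Adra2c SNP printed above has these letters, with the T in capitals. GC content in the 51 bp around the SNP had a median of 56.9% for B-only SNPs and 52.9% for SNPs with both alleles. B-only SNPs were 20.3% of the covered SNPs where GC content was at least 70% (435 of 2147) and 2.61% where it was 50 to 60% (2.35 to 2.88).

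**Figure D3:**
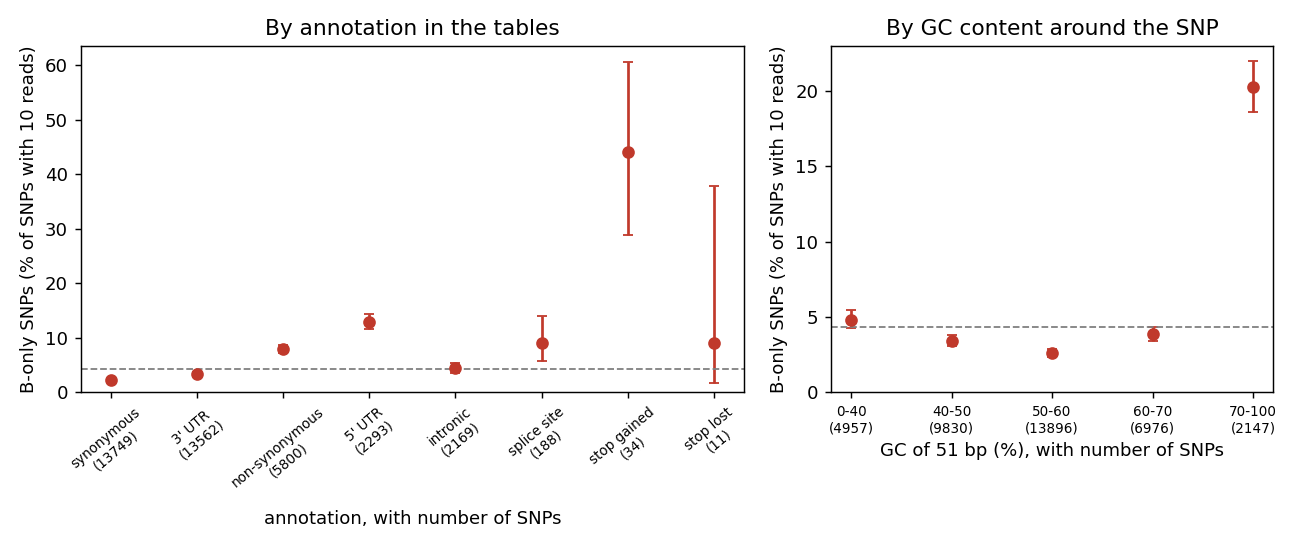
Percent of covered exonic SNPs that were B only, with 95% Wilson intervals, by annotation (left) and by GC content of 51 bp around the SNP (right). The dashed line marks 4.34%, the share over all covered SNPs, and numbers of SNPs are in brackets. The 5′ UTR, at 13.0%, and the windows of at least 70% GC, at 20.3%, stand above it.

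By the annotation in the tables, B-only SNPs were 13.0% of the covered 5′ UTR SNPs (11.6 to 14.4), 7.91% of the non-synonymous SNPs (7.25 to 8.64), 3.34% of the 3′ UTR SNPs and 2.21% of the synonymous SNPs (1.98 to 2.47). Of 763 B-only SNPs that were synonymous or non-synonymous, 60.2% were non-synonymous (56.6 to 63.6), compared with 28.0% of 18514 with both alleles and 42.6% of 61 D-only SNPs (31.0 to 55.1). Within 500 bp of the start of a coding transcript in GENCODE M1 lay 34.8% of B-only SNPs and 9.9% of SNPs with both alleles. Of the 34 covered SNPs annotated as stop gains, 15 were B only, and of 11 stop losses 1 was, in Ttc32. The deepest stop gains among them were in Sub1 (695 B reads), Ppig, a peptidyl-prolyl isomerase (379), Rac1, a small GTPase (364), Ccdc55 (360 and 269), Phf5a, a spliceosome component (218), Sipa1l2 (150) and Thap1, a transcription factor (134). Of these, the SNPs of Ppig, Rac1, Ccdc55, Phf5a, Sipa1l2 and Thap1 stood in runs of B-only SNPs and that of Sub1 stood alone.

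Counts at close neighbours show how many reads of each listed base were counted near the same place, from reads that are shared only in part. A covered exonic SNP that was not B only lay within 18 bp of 162 B-only SNPs, and 2.02% of its reads were D by the median over these neighbours. The B reads of the member over the B and D reads of the neighbour had a median of 0.913. At 26 of the 162 the neighbour had a D share between 30 and 70%, a range chosen after the values were seen. At these the member's B reads were 0.81 of all reads of the neighbour and 1.65 times its B reads (medians), while for 5812 SNPs with both alleles beside such a neighbour the B reads were 0.519 of its reads and 1.0 times its B reads. Uhrf1bp1l, Ugdh, Arpc5 and Plagl1 are named after their values were seen. Uhrf1bp1l had 372 B reads and no D read, and 12 bp away 164 B and 231 D reads. Ugdh, the UDP-glucose dehydrogenase gene, had 280 B reads and no D read, and 14 bp away 91 B and 70 D reads. Others of the 26 went the other way: Arpc5 had 178 B reads beside 341 B and 149 D reads (0.522 of the neighbour's B reads), and Plagl1 had 24 beside 67 and 98 (0.358). The quartiles of the ratio to the neighbour's B reads were 1.08 and 2.46. Within 50 bp, 76 B-only SNPs had a neighbour with a D share between 30 and 70%, and the values were lower. The medians were 0.671 of all its reads and 1.27 times its B reads, the latter with quartiles of 0.682 and 2.11. For 11195 SNPs with both alleles beside such a neighbour within 50 bp they were 0.512 and 1.0.

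Most genes with a B-only SNP had at least 1 D read at another exonic SNP. Of the 949 genes, 365 had no read at another exonic SNP more than 50 bp (the read length) from any B-only SNP. Of the other 584, 558 (95.5%) had at least 1 D read there, and a single D read was enough to be counted. With at least 10 reads there, 544 genes had a median D share of 46.3% (quartiles 35.7 and 51.4), and 351 of them (64.5%) were between 40 and 60%. For the 5971 genes without a B-only SNP the median was 48.4% and 73.2% were between 40 and 60%. No D read at all was found in 1.65% of the 544 genes (0.873 to 3.11) and in 0.234% of the 5971 (0.140 to 0.393). A D share under 1% was found in 6.25% and 1.24%. A D share under 10% was found in 69 of the 544 genes (12.7%, 10.1 to 15.7) and in 3.03% of the genes without a member (2.63 to 3.50). Within the same exon, 324 of 1126 exons with a B-only SNP had 10 reads at another SNP over 50 bp away, with a median D share of 43.6%.

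**Figure D4:**
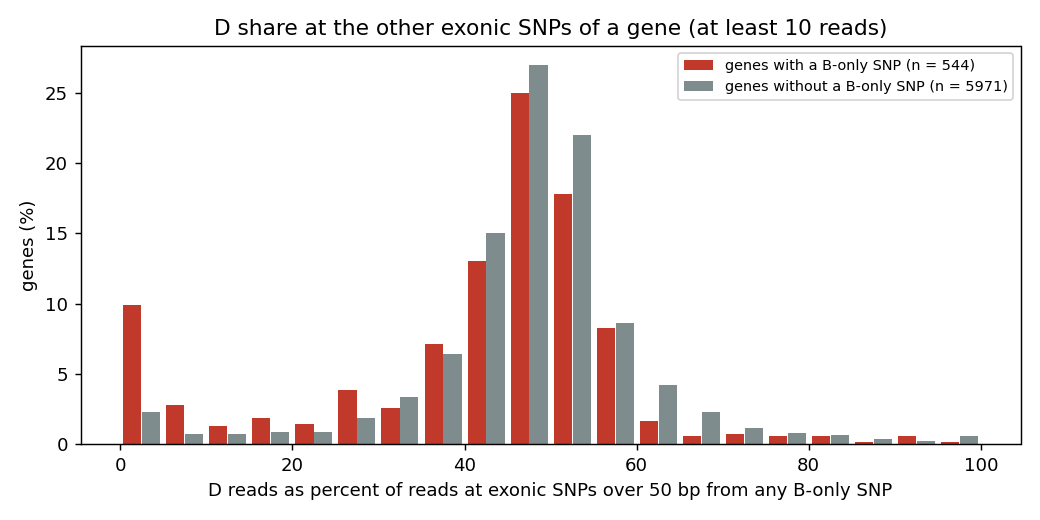
Distribution of the D share at exonic SNPs over 50 bp from any B-only SNP, as percent of 544 genes with a B-only SNP (red) and of 5971 without (grey). Both peak near 50%, and the lowest bin is taller for genes with a B-only SNP, with 69 of 544 under 10%.

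The D share of the rest of a gene was lower where the gene had more B-only SNPs, which is described here without a test. A gene with a low D share throughout gains more B-only SNPs by the rule itself, so this trend is partly built in. The 650 genes with 1 member had a median D share of 47.2% at their other exonic SNPs (357 genes with 10 reads), the genes with 2 had 45.3%, those with 3 or 4 had 41.2%, and the 49 genes with 5 or more had 17.8% (31 genes with 10 reads, quartiles 3.92 and 45.5). Shares under 10% were found in 6.44% of the first class (4.33 to 9.48) and 41.9% of the last (26.4 to 59.2). At intronic SNPs the medians were 46.2% and 41.4%. Of the 69 genes under 10% at exons, 36 had at least 10 intronic reads, and their median intronic D share was 27.0%, with 15 genes between 30 and 70%. The tables do not mark strand, so reads of overlapping genes cannot be told apart.

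Single genes showed both patterns. Dlc1, a GTPase activating protein gene, had 1 B-only SNP with 152 reads, and 33028 B and 30237 D reads at its other exonic SNPs (47.8% D). Serpina3n, of a family of near-identical protease inhibitor genes and therefore uncertain, had 3 B-only SNPs and 47.8% D at the others. Eef2 had 37189 B reads and 33 D reads at its other exonic SNPs, with 0.0816%, 0.0606%, 0.0915% and 0.128% D in the pools in the order above, whereas at its single intronic SNP 13 reads were B and 1631 were D. Smad5, a transcription factor of bone morphogenetic protein signalling, had 17 B-only SNPs among 29 covered. The first covered SNP, a splice site SNP ahead of them, had 7 B and 4 D reads. Between its first and last B-only SNP, 4 other covered SNPs lay, 3 with under 1% D reads, and none had a D share between 30 and 70%. The 7 following covered SNPs of its 3′ UTR had 28 B and 24 D, 65 and 102, 77 and 70, 259 and 252, 94 and 103, 165 and 184, and 325 and 408 reads. The D share changed between neighbouring SNPs at chr13:56839105 and chr13:56839220, both in the 3′ UTR.

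**Figure D5:**
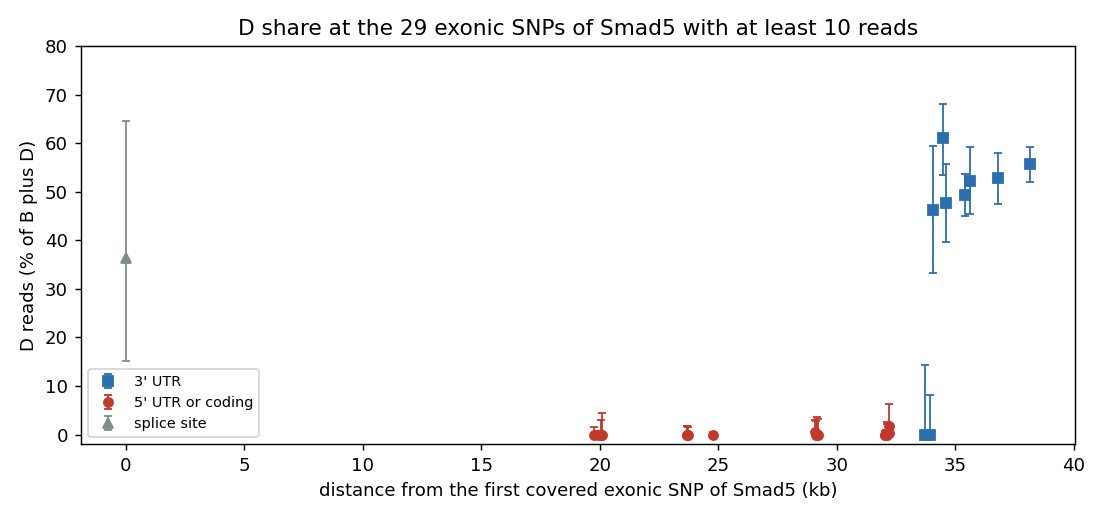
D share in percent with 95% Wilson intervals at the 29 covered exonic SNPs of Smad5, by distance in kb from the first of them. After a first SNP with 7 B and 4 D reads, the 5′ UTR and coding SNPs are at or near 0, and the last 7 SNPs of the 3′ UTR lie between 46.2% and 61.1%.

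Among the other genes with the most members, Cacna1e, a calcium channel subunit, had 24 of 71 covered SNPs B only, and the other 47 had D shares between 0.952% and 14.6%. Sipa1l2 had 23 of 27 B only. Ccdc55 had 23 of 30, and its other 7 had D shares of 0.129% to 2.38%. Serpina3b had 18 of 22 and is uncertain for the reason given for Serpina3n. Intronic SNPs of Cacna1e gave 767 B and 32 D reads. Phf5a, whose 9 members gave 3678 B reads, had 213 B and 176 D reads at its introns, and Ppp2r5a 74 and 77. Naglu, a lysosomal glycosidase gene, had 3 B-only SNPs with 747, 228 and 242 reads, and 163 bp after the last of them a SNP with no B read and 397 D reads.

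Alleles were compared per gene with edgeR's quasi-likelihood test at the exonic SNPs more than 50 bp from any B-only SNP, over 8 allele libraries. Since these SNPs belong to the same contrast and the same RNA as those that chose the members, the calls describe the genes and support nothing about the B-only SNPs. Of 7562 genes tested, 862 (11.4%) were called at an adjusted p-value under 0.05, 7.13% with B higher and 4.27% with D higher. Of the 584 tested genes with a B-only SNP, 145 (24.8%) were called, 119 with B higher (20.4%) and 26 with D higher (4.45%). With a block for the pool, since both alleles were counted in the same RNA, 2045 of all genes (27.0%) and 244 of the genes with a member (41.8%) were called, and B was higher in 53.0% and 67.6% of the calls in place of 62.5% and 82.1%. With 1 library size per pool, B was higher in 73.7% of all calls. Without the pool labelled DxB male, 559 of all genes and 113 of the genes with a member were called.

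The called genes with B higher that had the largest ratios were Aldoa, Eef2, Prdx1, Ankrd40 and Igfbp7, of which Aldoa and Eef2 are uncertain because near-identical copies can share their reads. Their D shares at the SNPs tested were 0.0217% in Aldoa, the glycolytic aldolase (2 D reads, 95% interval 0.00595 to 0.0791), 0.0811% in Prdx1 (2 D reads, 0.0223 to 0.295), 0.0762% in Eef2, 0.105% in Ankrd40 and 0.136% in Igfbp7. In Eef2 the log2 ratio of D to B was -10.23 ± 0.21 (SE, adjusted p = 8.74e-11 by edgeR), and in Igfbp7 -9.34 ± 0.32 (adjusted p = 1.57e-09). With D higher they were Naglu, H2-Q8, H2-T10, Tsen34, a subunit of the transfer RNA splicing endonuclease, and Thrap3, a coactivator. Tsen34 had 38 B and 262 D reads at the SNPs tested (log2 ratio 2.87 ± 0.29, adjusted p = 2.21e-05 by edgeR). Thrap3 had 12 B and 61 D reads (adjusted p = 0.00707 by edgeR), and lost its call without the pool labelled DxB female (adjusted p = 0.0709) or that labelled DxB male (adjusted p = 0.0667). H2-D1 had 8.87% and H2-K1 29.1% D reads at the SNPs tested, with the uncertainty of class I genes. Rrbp1, a ribosome-binding protein of the endoplasmic reticulum, had 40.6% D (log2 ratio -0.45 ± 0.13, adjusted p = 0.0511 by edgeR, 1.77e-10 with the pool block and up to 0.171 without the library labelled BxD male). For Smad5 the log2 ratio was -0.19 ± 0.12 (adjusted p = 0.418 by edgeR) and for Dlc1 -0.01 ± 0.11 (adjusted p = 0.988 by edgeR).

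By function, B-only SNPs were present in 14.4% of all covered genes (13.6 to 15.3). Of 19 covered ribosomal protein genes, which have many near-identical copies and are uncertain, 9 held one (47.4%, 27.3 to 68.3), among them Rpl3 and Rps9. They were in 4 of 8 glycolysis genes (Eno1, Aldoa, Ldha and Gpi1, interval 21.5 to 78.5%), of which Aldoa is uncertain for the reason given above. Of 14 insulin and JAK-STAT signalling genes 5 held one (with Stat3, Akt1 and Jak3, 16.3 to 61.2%). Of 16 proteasome genes 5 held one (with Psmd9, Psmd5 and Psma5, 14.2 to 55.6%). Of 16 adipogenic transcription factor genes 4 held one (with Stat3, Klf4 and Bcl6, 10.2 to 49.5%). Of 28 respiratory chain and ATP synthase genes 6 held one, with Cox8a the deepest (10.2 to 39.5%). The intervals of the proteasome, adipogenic transcription factor and respiratory chain lists include the share over all genes. Zinc finger protein genes had 18 of 124 (14.5%), and fatty acid synthesis and oxidation genes 2 of 14 (14.3%, 4.0 to 39.9), Acaca and Scd2, both near the share over all genes. Lipid storage and lipolysis had 1 of 16, Fabp5 (6.25%, 1.1 to 28.3), and collagens, laminins and integrins 2 of 31, Itgb3 and Itga5 (6.45%, 1.8 to 20.7), and both intervals include the share over all genes. These shares are descriptions without a test and are not matched for the number or depth of the covered SNPs of a gene.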

How the data were processed

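RNA-seq reads were 50 bp mates of polyA RNA from 4 pools. The authors aligned the mates as single reads to mm9, kept unique alignments and counted alleles at known variants, with B and D bases, annotation and exon given for each SNP. Reads were placed with mrsFAST allowing up to 3 mismatches and the rest with TopHat. Masking of known D variants to N is stated in the methods, but a supplementary passage speaks of it otherwise, so whether it applies to these counts is uncertain. The submitters' processing notes name CASAVA, TopHat 1 and mm9. Values are read counts per SNP and allele for each pool, deposited by the authors without normalization. The pools gave 4314646 to 5711515 autosomal reads in all table entries. Members, gene lists and alternatives were chosen with earlier results of these data known.

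Counts of each SNP were summed over the 4 pools. Shares are given with 95% Wilson intervals, which cover counting error only, and a count of 0 with a limit of 3 counts. Positions listed under several genes were counted once per SNP and once per gene. Genes were tested with edgeR 4.0.16 in R 4.3.3 (TMM normalization, quasi-likelihood test of D against B, Benjamini-Hochberg threshold 0.05) on sums over exonic SNPs more than 50 bp from a B-only SNP, keeping the first of SNPs within 18 bp of an exon, and DESeq2 1.42.0 was an alternative. Standard errors are the absolute log2 ratio over the square root of F. The B and D counts of a pool come from the same RNA, and their deviations from the allele means correlated at 0.519 to 0.643 over 4895 genes, so the pool block pairs them. Named genes were the 9 autosomal genes of the sequencing check listed as B only, and the 12 deepest members (1 per gene). The 5 genes with the most members and the 8 deepest stop changes were also named. Of genes with 10 reads at other SNPs, the 6 most read and the 5 called with the largest ratio in each direction were added. Glrx5 is shown with both SNPs. Sequences came from NCBIM37 and transcript starts from GENCODE M1, the same build, read with samtools 1.23.1. Sample identity follows the labels and was not tested. A gene counts in every entry that lists it.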

Additional observations from a re-analysis of the deposited data

Results flagged for a closer look

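Of 57 values compared between the 4 pools (B reads at the named SNPs, D shares at the other exonic SNPs of the named genes, and totals), 1 pool stood apart from the other three, where about 1 in 20 such comparisons does so by chance. The D share at the other exonic SNPs of Ppp2r5a was 3.23% in the pool labelled BxD female and 0 in the others, which is a single D read.

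Signals also appeared in data outside the comparisons. Among 45323 autosomal intronic SNPs with at least 10 reads, 1323 (2.92%) had B reads only and 407 (0.898%) had D reads only. Among 177 exonic SNPs on the X chromosome rows, 36 (20.3%) had B reads only and 0 had D reads only. Males with B mothers carry only the B copy of the X, so a SNP read in their pool has B reads. The count of 0 therefore follows largely from the design and is not compared with the 36.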

How the results depend on the processing

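The number of B-only SNPs was 2173 with at least 5 B reads, 1275 with at least 20, 1982 with up to 1% of D reads, 1447 with the first SNP within 18 bp and 1573 to 1633 with a pool left out. The share of genes with D reads at their other exonic SNPs was 98.3% with at least 10 reads there, 90.3% at intronic SNPs and 94.5% to 94.8% with a pool left out. With the pool as replicate block, 2045 genes in all and 244 with a B-only SNP were called. With a pool left out, 559 to 721 genes in all and 113 to 129 with a B-only SNP were called, the fewest without the pool labelled DxB male. DESeq2, its size factors, a filter at 10 reads, every SNP, any distance and a library size per pool kept both counts within 1.5 times. Transitions were 47.7% with 1 SNP per gene. B-only SNPs in bins with 3 or more were 22.1% with 1 per gene, 44.4% in 100 kb bins and 58.9% with at least 20 B reads. The ratio to all reads of the neighbour, at neighbours of any D share, was 0.83 within 50 bp. It was 0.895 with at least 20 reads at the neighbour and 0.889 to 0.909 with a pool left out. The causes were not tested. Of 53 alternatives to these results 12 moved and 41 stayed the same. At SNPs of 10 to 20 reads a low D share cannot be told from none, and reads at near-identical genes cannot be assigned with certainty.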
